A study of Homo sapiens with 12 samples.

Results

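The replication-dependent histone genes encode the bulk of the H1, H2A, H2B, H3 and H4 proteins that package newly copied DNA. They were taken from the deposited expression table by symbol: H1-1 to H1-6, and every symbol made of H2AC, H2BC, H3C or H4C followed by a number. This gave 69 of 21574 features: 6 genes of class H1, 17 of H2A, 18 of H2B, 13 of H3 and 15 of H4. The libraries were RNA-seq of MDA-231-LM2, a human breast cancer line selected from MDA-MB-231 for growth in the lung. There were 12 libraries in 4 groups of 3: Ctrl, Ctrl+IGF1, TMEM216 and TMEM216+IGF1. TMEM216 is a transmembrane protein found at the base of the primary cilium, and IGF1 is the ligand of the growth factor receptor IGF1R. All groups are of the same line; the labels state neither how TMEM216 was manipulated nor the dose and duration of IGF1. They do not call the replicates separate cultures, and a p-value therefore covers the spread among the sequenced libraries only, possibly a technical one. TMEM216 transcript ranged from 163 to 250 TPM in the 6 libraries labelled TMEM216 and from 24.0 to 30.1 TPM in the 6 labelled Ctrl; the higher level goes with the label. TPM (transcript abundance as a share of a fixed total) keeps no counts of reads, and sequencing depth is therefore unknown.

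Most messenger RNAs end in a poly(A) tail, whereas the typical replication-dependent histone mRNA ends just after a short conserved stem-loop. SLBP binds this stem-loop, and the U7 snRNP, which contains LSM10 and LSM11, directs the cut behind it. NPAT and CASP8AP2 act at the histone locus body, where these genes are transcribed in S phase, and ERI1 and UPF1 take part in the rapid decay of the mRNAs when DNA synthesis stops. Some of these genes also yield polyadenylated transcripts. The labels do not say whether RNA was selected for poly(A), so a level below is the level in these libraries and not the total histone mRNA of the cells. In bulk RNA, fewer cells in S phase and less histone mRNA per cell cannot be told apart.

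The stem-loop is shown first because it is the element that sets this family apart. Transcripts of GENCODE v29, which served only for sequence, were searched on the transcript strand for GG, any 2 bases, CTTTT, any base, AG, any 2 bases and CC. All 69 genes were matched, 4 of them by an older symbol. The motif followed the coding part in 30, starting 23 to 68 bases after its end (median 36.5). Of the 31 genes whose annotated transcripts ran at least 60 bases past the coding part, 29 held it; the other 38 had a shorter end in the annotation, and 1 of these held it. It lay somewhere in a transcript of 52 of 19684 coding genes (0.264%), 22 of them outside the family. The matches fell into 5 distinct sequences of 16 bases, given here in DNA letters with the 4 loop bases in capitals. The stem-loop of H2AC6, H2AC18, H2AC19, H3C10, H3C14 and 12 other genes, that of H4C8 and 4 others, that of H2BC5 and 3 others, that of H4C15, H4C14 and H4C9, and that of H2AC11 read as follows.
H2AC6 and 16 others: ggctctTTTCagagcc
H4C8 and 4 others: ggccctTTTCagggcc
H2BC5 and 3 others: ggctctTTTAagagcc
H4C15, H4C14 and H4C9: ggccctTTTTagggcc
H2AC11: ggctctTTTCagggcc
The first sequence occurred in H2AC6, at a mean of 59.3 TPM over the 12 libraries, and also in H2BC8 and H2BC9, listed at 0 in every library. Genes with the same stem-loop letters thus stood at both ends of the range. For the genes with the highest levels, H2BC12 and H1-2, the annotation held no bases after the coding part, so these could not be searched.

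RefSeq promoters (GRCh38.p14) were matched for 64 of the 69 genes, 50 on chromosome 6, 13 on chromosome 1 and 1 on chromosome 12. The motifs searched, on both strands of the 250 bases before the start, were CCAAT, which NF-Y binds, the TATA box as TATAAA, the octamer ATTTGCAT bound by POU2F1, and the H1 box AAACACA. The second of these and its reverse complement overlap within TTTATAAA and count there together. CCAAT lay in all 6 H1, 16 H2A, 18 H2B and 11 H3 promoters, but in 3 of 13 H4 promoters, against 9021 of 27305 promoters in the table. TATAAA lay in 42 of 64 (65.6%) against 11.1%. The octamer lay in 11 of 16 H2A and 14 of 18 H2B promoters, in 1 of 11 H3 promoters and in no H1 or H4 promoter, against 1.66%. That H3 promoter is the one of H3C4, listed with the same 250 bases as the promoter of H2AC7, an H2A gene. The match is therefore counted in both classes, and no separate H3 promoter held the octamer. The H1 box lay in all 6 H1 promoters and in none of the other classes, against 4.95%. Genes that start close together on opposite strands, such as H2AC6 and H2BC4, share most of the same stretch, and its matches are counted for both. Copies such as H2AC18 and H2AC19 have the same bases before their starts and are each counted as well. The counts are therefore of genes, and fewer separate stretches lie behind them. The promoters of the 3 genes with the highest levels are given to show these class patterns, 5′ to 3′ on the gene's own strand and ending at the base before the start, with these motifs on either strand in capitals. H2BC12 (chr6:27146859-27147108, minus strand) and H2AC6 (chr6:26123922-26124171, plus strand) carry the octamer, and H1-2 (chr6:26056471-26056720, minus strand) carries the H1 box.
H2BC12: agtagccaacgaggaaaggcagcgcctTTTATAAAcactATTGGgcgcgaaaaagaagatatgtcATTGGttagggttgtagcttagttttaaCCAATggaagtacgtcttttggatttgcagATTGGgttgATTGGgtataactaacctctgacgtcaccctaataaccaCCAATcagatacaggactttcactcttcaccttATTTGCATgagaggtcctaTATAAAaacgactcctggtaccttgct
H1-2: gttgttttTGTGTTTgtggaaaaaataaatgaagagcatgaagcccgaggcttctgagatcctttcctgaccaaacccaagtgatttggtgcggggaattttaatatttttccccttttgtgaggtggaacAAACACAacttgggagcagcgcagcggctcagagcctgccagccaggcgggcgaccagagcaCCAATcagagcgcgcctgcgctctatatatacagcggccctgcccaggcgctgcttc
H2AC6: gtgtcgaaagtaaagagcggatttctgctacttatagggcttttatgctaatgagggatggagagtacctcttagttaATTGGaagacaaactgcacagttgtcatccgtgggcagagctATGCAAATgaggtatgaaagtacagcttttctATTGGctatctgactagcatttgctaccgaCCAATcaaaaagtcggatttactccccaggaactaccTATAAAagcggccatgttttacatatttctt
The H2AC6 promoter is also that of H2BC4, which starts 246 bases away on the other strand. From this shared stretch, H2AC6 stood at 59.3 TPM and H2BC4 at 5.17 TPM (means of 12 libraries), a ratio of 11.5. There were 12 such divergent pairs with starts less than 500 bases apart. H2BC7 is counted there with H3C4 and again with H2AC7, although H3C4 and H2AC7 are listed at the same start. Besides H2AC6 and H2BC4, some pairs had both genes above 1 TPM. Their ratio was 1.31 for H2BC17 over H2AC17, 1.58 for H2BC21 over H2AC20 and 4.05 for H2BC11 over H2AC11.

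Across the family, a few genes made up nearly all of the signal. The 69 genes together took 0.0817% to 0.102% of all TPM in a library. H2BC12, an H2B gene, had a mean of 338 TPM over the 12 libraries and H1-2, a linker histone, of 306 TPM; these ranked 468 and 524 among the 21574 features. Together they held 70.5% of the family's TPM. The core histone genes H2AC6, H2BC5, H2AC18 and H2AC19 followed at 59.3, 44.1, 38.5 and 38.2 TPM, which brought the share to 90.2%. By class, H2B held 44.6%, H1 33.7%, H2A 16.4%, H4 3.85% and H3 1.46%. H2A, H2B, H3 and H4 proteins are used in equal numbers in the nucleosome, and the transcript levels in these libraries were far from equal. A mean between 1 and 10 TPM was found for 24 genes and a mean under 1 TPM for 39, of which 19 were listed at 0 in every library. Such a 0 may also be an estimate that failed. Of the 19, 3 were H1, 3 H2A, 5 H2B, 3 H3 and 5 H4 genes.

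**Figure D1:**
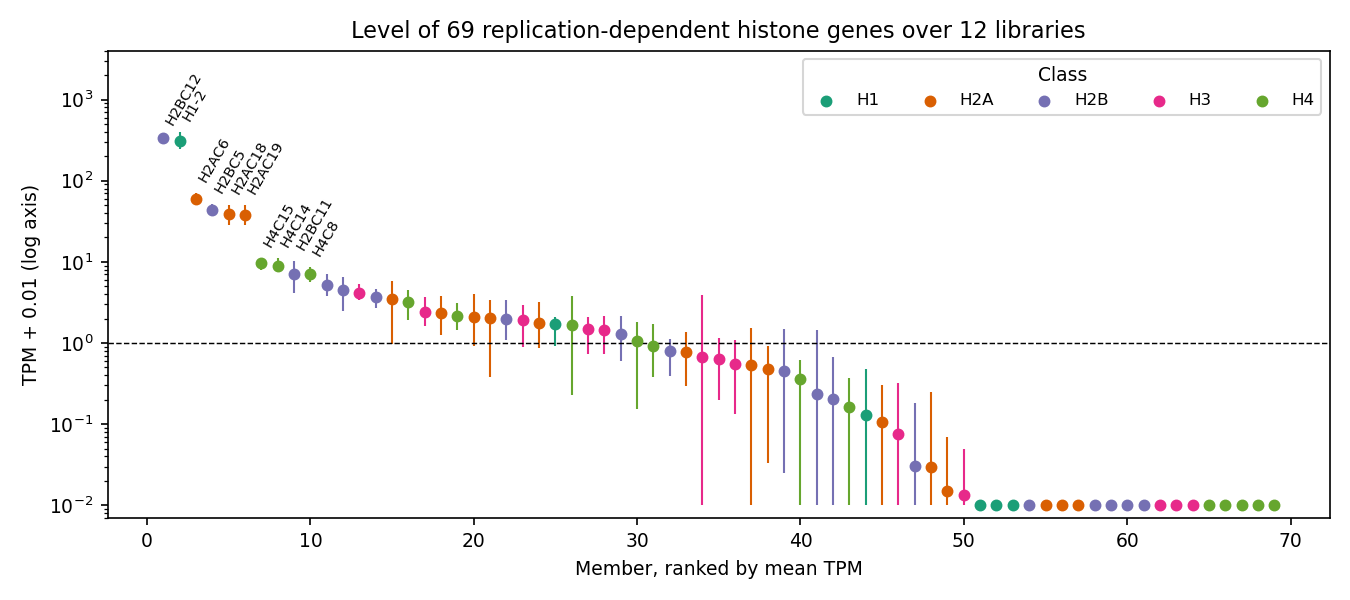
Mean TPM (point) and the lowest and highest of 12 libraries (line) of each of the 69 genes, ranked by mean, on a log axis after adding 0.01, with colour for the histone class and a dashed line at 1 TPM. H2BC12 and H1-2 stand at 338 and 306 TPM, 4 H2A and H2B genes between 38.2 and 59.3 TPM, and 19 genes lie at 0.

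Differences between the groups were tested on log2(TPM + 1) for the 13071 features with at least 1 TPM in 3 or more libraries. This kept 33 of the 69 genes: 2 of H1, 9 of H2A, 8 of H2B, 6 of H3 and 8 of H4; the 36 others were not tested. For genes of low TPM this scale gives a smaller change than the TPM themselves. Adjusted p is limma's, with Benjamini-Hochberg adjustment over all 13071 features, and the threshold was 0.05. No replication-dependent histone gene passed it in any of the comparisons.

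The question for IGF1 was how Ctrl and TMEM216 cells differed with and without the ligand. In Ctrl cells, 0 of 33 genes passed by limma, where 0.0306% of all tested features did. At an unadjusted p under 0.05 there were 4 of 33, where 6.89% of all features had one; these were H1-2, H2AC18, H2AC19 and H3C3, all higher with IGF1. The median log2 change of the 33 was 0.071, with 22 higher and 11 lower, against -0.088 over all features. After quantile normalization the median was 0.17, with 27 higher and 7 at an unadjusted p under 0.05. After median-of-ratios scaling it was 0.16, with 25 and 6. The medians over all features were then -0.0086 and -0.0049. The share of all features with such a p was not computed after either scaling, so the counts of 7 and 6 cannot be set against one. In TMEM216 cells, 0 of 33 passed by limma, where 0.0153% of all features did. At an unadjusted p under 0.05 there were 2, H4C12 and H3C14, both lower with IGF1, where 4.77% of all features had one. The median was -0.055, with 12 higher and 21 lower, against 0.018 over all features.

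The question for TMEM216 was how TMEM216 cells differed from Ctrl cells in each IGF1 condition. Without IGF1, 0 of 33 passed by limma, where 1.09% of all features did. The 4 with an unadjusted p under 0.05 were H1-2, H2AC18 and H2AC19, higher in TMEM216 cells, and H2BC11, lower; 13.2% of all features had one. The median was 0.0031, with 17 higher and 16 lower, against -0.048. With IGF1, 0 of 33 passed by limma, where 1.61% of all features did. The 3 with an unadjusted p under 0.05 were H3C14, H3C15 and H3C2, all lower in TMEM216 cells, where 15.8% of all features had one. The median was -0.060, with 12 higher and 21 lower, against 0.048. The comparisons share groups: Ctrl serves both IGF1 in Ctrl and TMEM216 without IGF1, so the 3 genes named in both rest in part on the same libraries.

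The interaction asked whether the IGF1 difference itself differed between the cell populations. Here 0 of 33 passed by limma, where 0.0153% of all features did, and 3 had an unadjusted p under 0.05 (H2AC18, H2AC19 and H1-2, each with an adjusted p of 0.754), where 5.38% of all features had one. With IGF1 averaged over both populations, 0 of 33 passed, where 0.0536% did, and 3 had an unadjusted p under 0.05, where 5.88% of all features had one. With TMEM216 averaged over both IGF1 conditions, 0 of 33 passed, where 5.22% did. There 5 had an unadjusted p under 0.05, where 20.1% of all features had one, and the smallest adjusted p of the family was 0.169, for H2BC11. The precision differed between genes: the 95% interval of the change lay within 1 log2 unit on either side of 0 for 29 or 30 of the 33 genes in each of the 4 simple comparisons. On the log2(TPM + 1) scale a gene near 1 TPM can fall by about 1 unit at most, even if lost entirely. For such genes this count therefore cannot exclude a large fall.

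**Figure D2:**
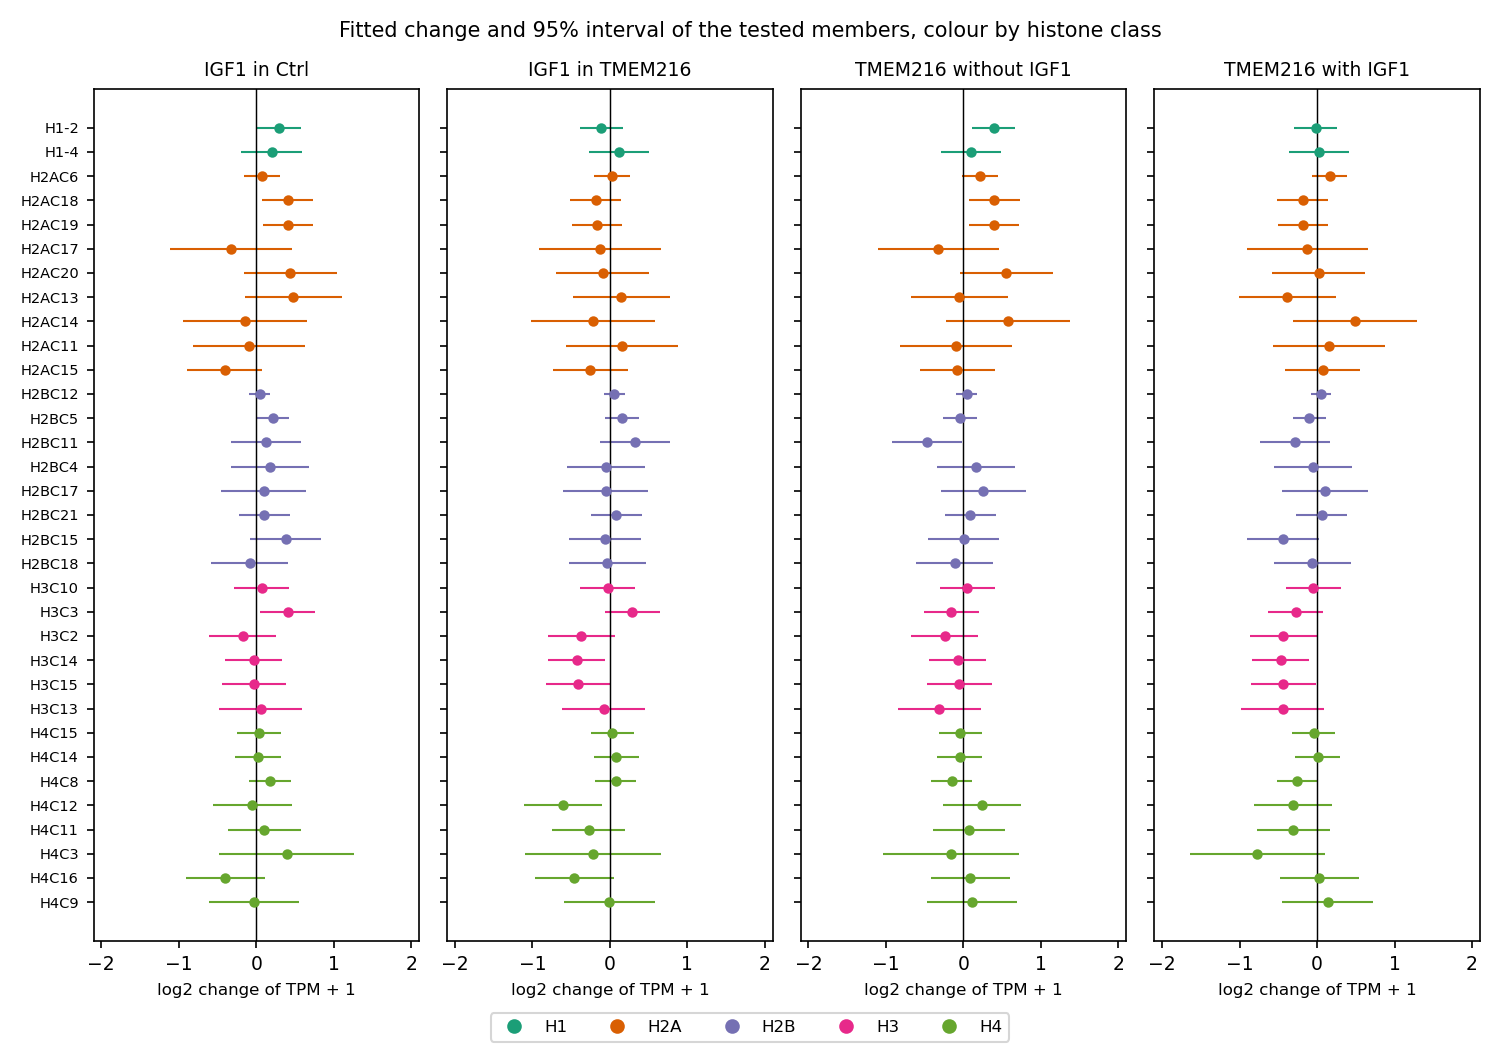
Change on the log2(TPM + 1) scale (point) with its 95% interval from limma (line) for the 33 tested genes in the 4 simple comparisons, in class order and coloured by class. The intervals of H2BC12 are the narrowest and span 0 in each panel; the 6 H3 genes lie left of 0 in the panel for TMEM216 with IGF1, none past the threshold.

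The linker histone H1-2 binds DNA where it enters and leaves the nucleosome. Its level was 267, 247 and 255 TPM in the Ctrl libraries 1 to 3, and 313, 266 and 373 TPM in Ctrl+IGF1. It was 403, 317 and 296 TPM in TMEM216, and 332, 292 and 309 TPM in TMEM216+IGF1. Every TMEM216 library lay above every Ctrl library, while Ctrl+IGF1 overlapped Ctrl by its second library and TMEM216+IGF1 overlapped Ctrl+IGF1. The log2 change was 0.39 (SE 0.13, limma adjusted p = 0.194) for TMEM216 without IGF1 and 0.29 (SE 0.13, adjusted p = 0.673) for IGF1 in Ctrl. H1-2 shared no 50-base stretch with another member in the annotation, so its reads were less open to being split with a copy. H1-4, also a linker histone, ranged from 0.903 to 2.05 TPM over the 12 libraries, and its log2 changes lay between 0.024 and 0.20 in the 4 simple comparisons. H1-6, the testis linker histone, did not exceed 0.469 TPM, and H1-1, H1-3 and H1-5 were listed at 0 in every library.

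Among the H2A genes, H2AC6 stood at 51.0, 59.4 and 51.6 TPM in Ctrl and at 54.9, 58.3 and 56.9 TPM in Ctrl+IGF1. It stood at 53.7, 65.7 and 69.2 TPM in TMEM216 and at 61.0, 70.9 and 59.5 TPM in TMEM216+IGF1. The TMEM216 libraries reached higher but overlapped those of Ctrl. Its log2 change was 0.21 (SE 0.11, limma adjusted p = 0.429) for TMEM216 without IGF1. H2AC18 was at 34.3, 28.4 and 32.6 TPM in Ctrl and at 43.5, 34.2 and 50.5 TPM in Ctrl+IGF1. It was at 48.6, 42.9 and 35.6 TPM in TMEM216 and at 37.5, 32.7 and 41.2 TPM in TMEM216+IGF1. Each TMEM216 library exceeded each Ctrl library, with a log2 change of 0.40 (SE 0.15, limma adjusted p = 0.273), and IGF1 in Ctrl gave log2 0.40 (SE 0.15, adjusted p = 0.673) with 1 library overlapping. The interaction was -0.58 (SE 0.21, adjusted p = 0.754). H2AC19 gave nearly the same values, 28.7 to 49.8 TPM. H2AC18 and H2AC19 are copies on chromosome 1: all 50-base stretches of H2AC18 lay in H2AC19, and 249 bases before their starts were identical, so the split of reads between them is uncertain and they do not count as 2 independent genes. The other 6 tested H2A genes had means from 0.757 to 3.46 TPM, and none had an unadjusted p under 0.05 in a simple comparison.

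The H2B genes held the most signal and, in H2BC12, the steadiest. H2BC12 was at 302, 337 and 342 TPM in Ctrl, at 336, 334 and 342 TPM in Ctrl+IGF1, at 329, 347 and 333 TPM in TMEM216 and at 351, 356 and 342 TPM in TMEM216+IGF1. Apart from the first Ctrl library, all lay between 329 and 356 TPM. Its log2 change was 0.042 (95% interval -0.093 to 0.18) for TMEM216 without IGF1 and 0.046 (-0.089 to 0.18) for IGF1 in Ctrl. Of its 50-base stretches, 22.6% also occur in another member. H2BC5 was at 40.7, 42.0 and 42.6 TPM in Ctrl and at 51.3, 46.5 and 47.8 TPM in Ctrl+IGF1. In TMEM216 it was at 45.2, 36.8 and 39.9 TPM and in TMEM216+IGF1 at 47.0, 39.7 and 49.6 TPM. The Ctrl+IGF1 libraries lay above the Ctrl libraries (log2 0.21, SE 0.098, limma adjusted p = 0.673), while TMEM216 and TMEM216+IGF1 overlapped. H2BC11 averaged 7.84 ± 2.29 TPM in Ctrl, 8.54 ± 1.76 in Ctrl+IGF1, 5.28 ± 1.13 in TMEM216 and 6.77 ± 0.696 in TMEM216+IGF1 (SD, n = 3 each). Ctrl and TMEM216 overlapped, and the log2 difference was -0.47 (SE 0.21, limma adjusted p = 0.351).

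**Figure D3:**
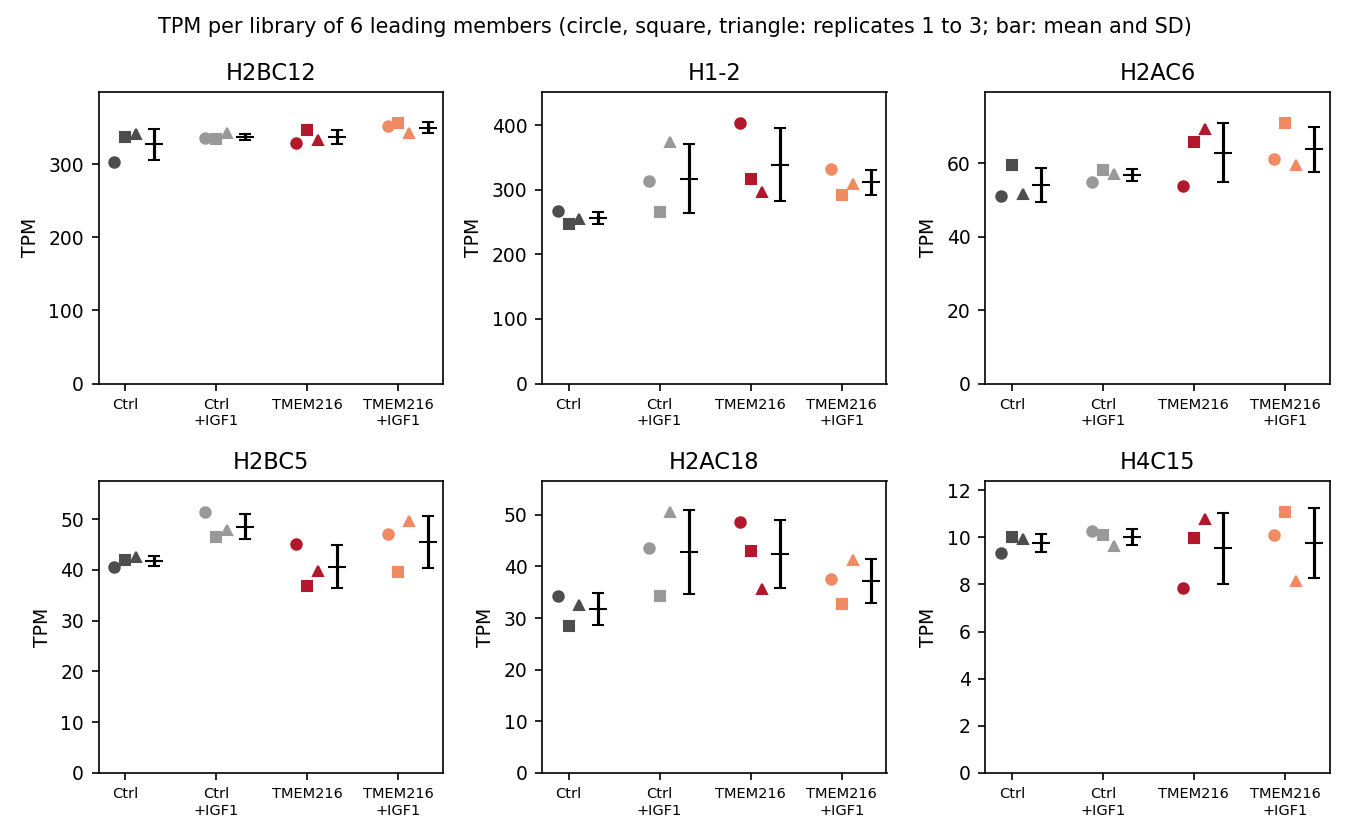
TPM of H2BC12, H1-2, H2AC6, H2BC5, H2AC18 and H4C15 in each library by group (circle, square and triangle are replicates 1 to 3, and the bar gives mean and SD, n = 3). H2BC12 stays between 302 and 356 TPM, while H1-2 and H2AC18 are highest in Ctrl+IGF1 replicate 3 and TMEM216 replicate 1.

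The H3 genes were low, between 0 and 5.29 TPM in every library. H3C10, with the highest mean of the class, ranged from 3.40 to 5.29 TPM, and the groups overlapped. H3C3 was at 1.85, 2.49 and 2.17 TPM in Ctrl and at 2.89, 3.04 and 3.68 TPM in Ctrl+IGF1. It was at 1.61, 2.18 and 1.75 TPM in TMEM216 and at 3.22, 2.37 and 1.92 TPM in TMEM216+IGF1. Ctrl+IGF1 lay wholly above Ctrl (log2 0.41, SE 0.16, limma adjusted p = 0.673), and the groups of TMEM216 cells overlapped. H3C14 was at 1.39, 1.91 and 1.90 TPM in Ctrl, at 1.71, 1.61 and 1.65 TPM in Ctrl+IGF1, at 1.25, 1.48 and 2.08 TPM in TMEM216 and at 1.31, 0.716 and 0.783 TPM in TMEM216+IGF1. The TMEM216+IGF1 libraries lay below the Ctrl+IGF1 libraries, with a log2 change of -0.47 (SE 0.17, limma adjusted p = 0.212). H3C15 gave nearly the same values; the annotation gives both genes the same 50-base stretches throughout, so they too are counted as uncertain copies. H3C2 was at 2.41 ± 0.468 TPM in Ctrl, 2.01 ± 0.261 in Ctrl+IGF1, 1.91 ± 0.656 in TMEM216 and 1.25 ± 0.494 in TMEM216+IGF1 (SD, n = 3 each). The log2 difference for TMEM216 with IGF1 was -0.44 (SE 0.20, limma adjusted p = 0.311). In that comparison all 6 tested H3 genes, the copies H3C14 and H3C15 among them, had a negative fitted change, with a median of -0.43, and none passed. The summed TPM of the 13 H3 genes was 15.7 ± 1.51 in Ctrl+IGF1 and 11.3 ± 2.03 in TMEM216+IGF1 (SD, n = 3). The first sum includes the untested H3C12, at 3.86 TPM in Ctrl+IGF1 replicate 1 alone. Over the tested H3 genes only, the mean sums were 13.6 and 10.1 TPM.

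The H4 genes were also low, and H4C15 and H4C14 led them. H4C15 ranged from 7.84 to 11.1 TPM and H4C14 from 7.42 to 11.2 TPM, with overlap between all groups. These are copies on chromosome 1 with identical promoters over 250 bases, and each overlaps an H3 gene on the opposite strand (H3C15 and H3C14). The labels do not say whether strand was kept, so reads of these H3 and H4 genes could be split with each other. H4C8, on chromosome 6, was at 7.99, 8.73 and 7.75 TPM in Ctrl+IGF1 and at 7.24, 6.03 and 6.76 TPM in TMEM216+IGF1. The groups did not overlap, and the log2 change was -0.26 (SE 0.12, limma adjusted p = 0.336). H4C12, whose 50-base stretches all occur in H4C11, was at 3.96 ± 0.753 TPM in TMEM216 and 2.25 ± 0.308 TPM in TMEM216+IGF1 (SD, n = 3), a log2 change of -0.60 (SE 0.23, limma adjusted p = 0.938).

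Summed over the 69 genes, TPM was 817, 833 and 841 in Ctrl and 942, 862 and 1021 in Ctrl+IGF1. It was 1013, 940 and 899 in TMEM216 and 952, 915 and 921 in TMEM216+IGF1. All 9 libraries outside Ctrl lay above the 3 Ctrl libraries. The group means were 830 ± 12.6, 942 ± 79.1, 951 ± 58.2 and 930 ± 19.5 TPM (SD, n = 3 each); such a sum was given no test. By class, the mean sum of the Ctrl, Ctrl+IGF1, TMEM216 and TMEM216+IGF1 libraries was 258, 319, 341 and 313 TPM for H1 and 130, 155, 161 and 152 TPM for H2A. For H2B it was 393, 414, 401 and 421 TPM, for H3 13.6, 15.7, 12.6 and 11.3 TPM, and for H4 35.1, 37.3, 35.3 and 33.0 TPM. The H3 sum was thus lower in the groups of TMEM216 cells than in Ctrl, unlike those of H1, H2A and H2B. Most of the gap between Ctrl and TMEM216 thus lay in H1, which is H1-2 almost alone, and in H2A.

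**Figure D4:**
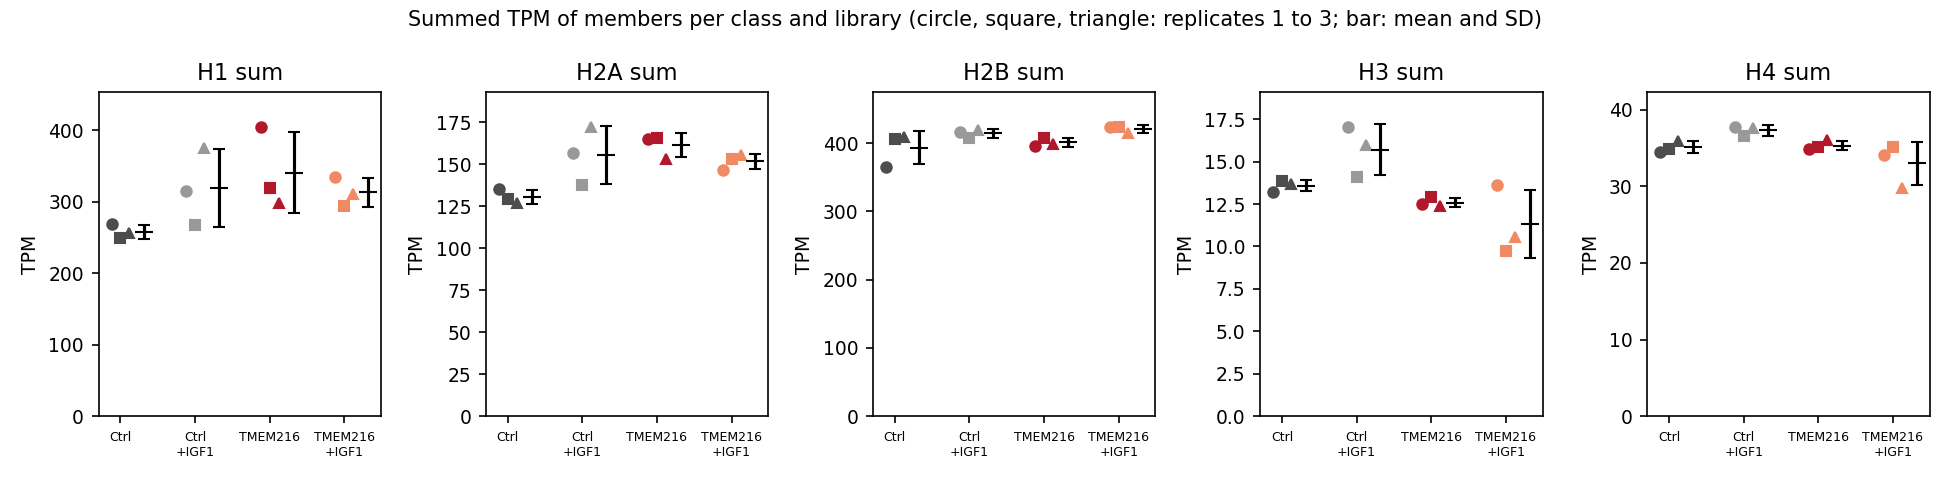
Summed TPM of the genes of each class in each library by group, each panel on its own axis from 0 (circle, square and triangle are replicates 1 to 3, and the bar gives mean and SD, n = 3). The H2A sums of the 3 Ctrl libraries lie below all others, and the mean H3 sum is lowest in TMEM216+IGF1.

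The libraries with the highest H1-2 and H2AC18 levels also had the largest share of ribosomal protein transcripts. Transcripts of 86 ribosomal protein genes made up 16.9% of the TPM of Ctrl+IGF1 replicate 3 and 14.5% of that of TMEM216 replicate 1, against 12.4% to 14.4% in the other 10. Without both libraries the log2 change of H1-2 was 0.26 (SE 0.081, limma adjusted p = 0.148) for TMEM216 without IGF1 and 0.17 (SE 0.081, adjusted p = 0.981) for IGF1 in Ctrl. That of H2AC18 was 0.30 and 0.28, and no member passed. The smallest adjusted p of any member in that fit was 0.0532, in the comparison of TMEM216 averaged over IGF1. The gene behind it was not recorded. In both TMEM216 comparisons of that fit H2AC6 had a smaller unadjusted p by limma (0.00706 without IGF1, 0.105 with it) than H1-2 (0.0102 and 0.216). H2AC18 stood further off (0.0570 and 0.666). The smallest adjusted p is therefore not put down to H1-2 or H2AC18. The libraries left out held the highest H1-2 and H2AC18 levels of their groups, so both changes had to shrink without them. What part the ribosomal protein share has in these differences was therefore not tested.

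**Figure D5:**
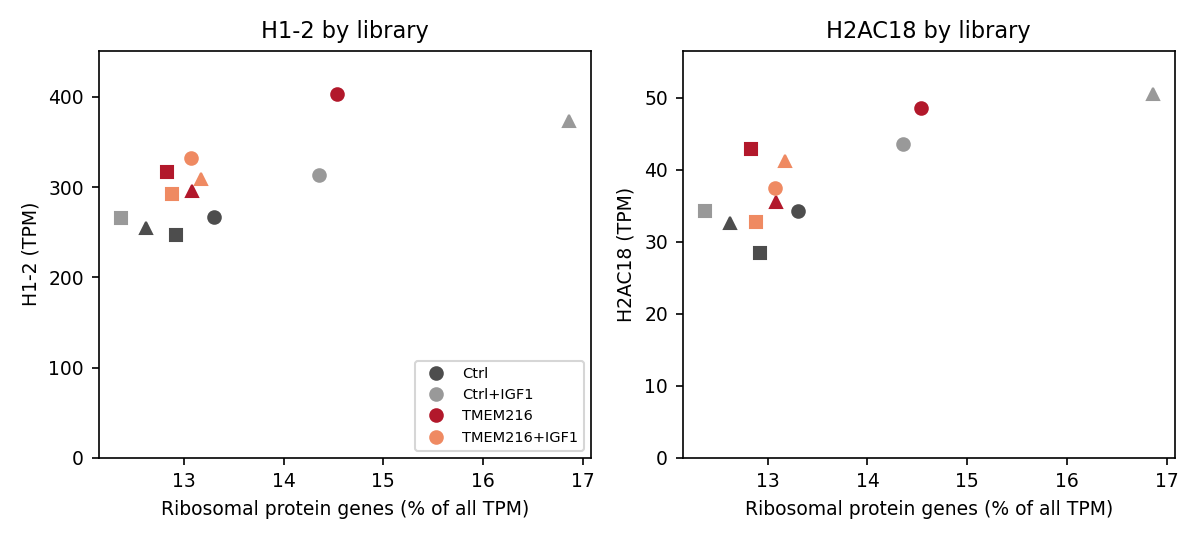
H1-2 and H2AC18 TPM in each library against the share of all TPM from ribosomal protein genes (colour for the group; circle, square and triangle are replicates 1 to 3). The highest H1-2 and H2AC18 values belong to the libraries with 14.5% and 16.9%.

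The factors that make and destroy histone mRNA had no detected change. SLBP was at 182 ± 9.67 TPM in Ctrl, 185 ± 5.82 in Ctrl+IGF1, 188 ± 9.70 in TMEM216 and 178 ± 11.0 in TMEM216+IGF1 (SD, n = 3 each). Its log2 change was 0.050 (95% interval -0.10 to 0.20) for TMEM216 without IGF1. NPAT ranged from 13.8 to 20.7 TPM over the 12 libraries and CASP8AP2 from 11.9 to 20.3 TPM. CASP8AP2 had a log2 change of -0.31 (SE 0.14, unadjusted p = 0.0440, limma adjusted p = 0.673) for IGF1 in Ctrl. The U7 snRNP proteins LSM10 and LSM11 were at 72.3 to 83.2 and 4.88 to 5.98 TPM, in the group means, and ZNF473, a zinc finger protein of the same machinery, at 15.9 to 17.4 TPM. The decay factors ERI1 and UPF1 were at 27.5 to 30.9 and 63.2 to 63.4 TPM. None of these passed in any comparison. Of the full lists, 0 of 28 genes of histone mRNA processing and 0 of 21 of its decay passed by limma in any comparison. At most 3 of the 28 had an unadjusted p under 0.05, for IGF1 in Ctrl, where 6.89% of all features had one. Of the 21 it was at most 2, for TMEM216 with IGF1 and for TMEM216 averaged, where 15.8% and 20.1% of all features had one. None of 21 other RNAs without a poly(A) tail, taken as a list, matched a row of the table used here, so they give no level to set beside the histone genes.

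Few genes that accompany histone synthesis in the cell cycle passed the threshold. Of 41 genes of G1/S and DNA replication, 1 passed for TMEM216 with IGF1, where 1.61% of all features did. This was GINS2, a subunit of the replicative helicase, at 36.0 ± 0.481 TPM against 25.6 ± 2.44 TPM (SD, n = 3; log2 0.48, SE 0.093, limma adjusted p = 0.0239). Without IGF1 it was at 35.4 ± 3.31 TPM against 28.2 ± 1.72 TPM (log2 0.32, SE 0.093, adjusted p = 0.138), and the interaction did not pass (log2 0.16, SE 0.13, adjusted p = 0.754). With TMEM216 averaged over IGF1, GINS2 passed (log2 0.40, limma adjusted p = 0.00464), where 5.22% of all features did. MCM5, another helicase subunit, passed there as well (log2 0.24, limma adjusted p = 0.0328). For IGF1 in Ctrl, none of the 41 passed; 5 had a higher fitted level with IGF1, and their median log2 change was -0.14 against -0.088 over all features. With IGF1 averaged, none passed by limma and 7 of the 41 had an unadjusted p under 0.05, where 5.88% of all features had one. Of 25 histone chaperones, which carry histones to and from DNA, 1 rose in TMEM216 cells with IGF1, the H2A.Z chaperone ANP32E (log2 0.29, SE 0.064, limma adjusted p = 0.0481). Without IGF1 ANP32E did not pass (log2 0.20, adjusted p = 0.175), and averaged over IGF1 it did (log2 0.24, adjusted p = 0.00900). The calls followed through the alternatives depended on the processing. For TMEM216 with IGF1, GINS2 lost its call in 7 of 21 alternatives and ANP32E in 16 of 21. For TMEM216 averaged, MCM5 lost its call in 8 of 20, and the calls of GINS2 and ANP32E were not followed. None of 20 G2/M genes passed in any comparison by limma; at most 5 had an unadjusted p under 0.05, for TMEM216 with IGF1, where 15.8% of all features had one. For IGF1 in Ctrl, 3 of the 20 had a higher fitted level with IGF1, with a median of -0.14.

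Library facts and markers were checked once. Correlations between libraries on the log2 scale were 0.977 to 0.990. All 10 markers of the line were present, with a summed level of 10910 to 12671 TPM. Of these the keratins KRT8 and KRT19 were lower in TMEM216 cells. KRT8 had log2 -0.38 without IGF1 (limma adjusted p = 0.00957) and -0.30 with it (0.0259). KRT19 had log2 -0.38 (limma adjusted p = 0.0471) and -0.39 (0.0323). Of all features 1.09% and 1.61% passed there. Their calls were not followed through the alternatives, except where the 2 libraries with the largest ribosomal protein share were left out. Of 7 luminal breast markers, 5 stayed under 1 TPM. Of 10 leukocyte and endothelial markers, 8 stayed under 1 TPM, 3 of them at 0 in every library. Their summed level was 3.28 to 3.77 TPM in Ctrl, 2.53 to 2.98 in Ctrl+IGF1, 3.22 to 5.54 in TMEM216 and 4.75 to 5.38 in TMEM216+IGF1. PECAM1, an endothelial adhesion protein, rose in TMEM216 cells with IGF1, from 0.766 ± 0.113 to 1.83 ± 0.313 TPM (SD, n = 3; limma adjusted p = 0.0324), a call lost in 12 of 20 alternatives.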

How the data were processed

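Total RNA was the starting material of the 12 libraries in 4 groups of 3, made with an Illumina TruSeq RNA kit, per the labels' protocols. Whether the kit used selected for poly(A) or kept strand was not stated. The deposited values are TPM that the authors made; HISAT2, StringTie and RSEM are named in the submitters' processing notes, without versions. The build and annotation behind them were not given in the sources used here, and depth is unknown. From TPM, log2(TPM + 1) was computed, features with TPM of at least 1 in 3 libraries were kept, and the 4 groups were fitted with limma 3.58.1 (R 4.3.3, with the package data.table at 1.17.8) with a mean-variance trend. Tests were two-sided, with Benjamini-Hochberg adjustment over 13071 features and a threshold of 0.05; SE is limma's. The fit was tested on simulated data. GENCODE v29 gave transcript sequences and overlaps, and RefSeq GRCh38.p14 gave promoters. pandas 2.3.3 in Python 3.11.15 and matplotlib 3.10.9 were used for sequences and figures.

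The genes and lists were chosen with earlier results of these data known. Named in full were the 3 genes of each class with the highest mean and those with an unadjusted p under 0.05 in 2 or more simple comparisons, and, of each other list, up to 4 past the threshold. The 8 processing and decay factors were always named. H4C12, H3C15 and the divergent pairs were named after their values were seen. The fit was repeated with quantile normalization, with median-of-ratios scaling, with a pseudocount of 0.1, with a minimum TPM of 5 and with no filter, and with no trend, the 6 libraries compared, a replicate block, each library left out and a minimum absolute log2 change of 1. Leaving out the 2 libraries with the largest ribosomal protein share was added after seeing the data. Of the listed genes outside the family, the result of 1 is not reported here.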

Additional observations from a re-analysis of the deposited data

How the results depend on the processing

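No replication-dependent histone gene passed the threshold under any alternative (151 pairs of a comparison and an alternative), and the smallest adjusted p by limma was 0.0532. The 151 include the minimum absolute log2 change of 1, which only thins the calls of the main fit. No member was called there, so that alternative could not have returned a member. The median change of the tested members moved by less than 0.15 under each alternative. That value is the SD of the median between libraries of a group, and it exceeds every median of the main fit in size. Such a mark could not show that a median is stable. For IGF1 in TMEM216, TMEM216 without IGF1 and both averaged comparisons, the sign of the median changed under some alternative. For IGF1 in Ctrl, TMEM216 with IGF1 and the interaction it did not. The median also shifted with the scaling. For the interaction it went from -0.10 to -0.22 after quantile normalization and -0.19 after median-of-ratios scaling. For TMEM216 with IGF1 it went from -0.060 to -0.11 under both. The count of all features called was less steady. With a pseudocount of 0.1 it was 0 for IGF1 in Ctrl, 7 for IGF1 in TMEM216 and 1 for the interaction. Without a filter it was 1 for IGF1 in Ctrl and 1 in TMEM216. With a minimum TPM of 5 it was 0, 4 and, for the interaction, 1. Quantile normalization gave 2 for IGF1 in Ctrl and 1 for the interaction, and median-of-ratios scaling 1 for IGF1 in TMEM216 and 1 for the interaction. A fit of the 6 libraries compared gave 1 for IGF1 in Ctrl and 49 for TMEM216 both without and with IGF1. With an absolute log2 change of at least 1 it was 2 for IGF1 in Ctrl, 1 for IGF1 averaged, and 17, 27 and 22 for TMEM216 without IGF1, with IGF1 and averaged. Without both libraries of the largest ribosomal protein share it was 1 for IGF1 in TMEM216, 288 for TMEM216 without IGF1, 1 for the interaction, 4 for IGF1 averaged and 1061 for TMEM216 averaged. The cause was not tested.

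Leaving out each library in turn gave 1 to 5 features for IGF1 in Ctrl, 1 to 6 for IGF1 in TMEM216, 43 to 273 for TMEM216 without IGF1, 84 to 462 with IGF1, 1 to 3 for the interaction, 1 to 11 for IGF1 averaged and 392 to 906 for TMEM216 averaged. The lowest count for TMEM216 without IGF1 came without Ctrl replicate 2 and the highest without Ctrl+IGF1 replicate 3. With IGF1 the lowest came without TMEM216+IGF1 replicate 1 and the highest without Ctrl+IGF1 replicate 2.

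No pairing by replicate number was seen. Correlations of same-numbered deviations ran from -0.29 to 0.17, those of other numbers from -0.27 to 0.28, and 4 of 12 libraries correlated best with their own number. With 3 libraries per group this cannot show that libraries were not handled in pairs. With the replicate block the counts of all features were 1 and 1 for IGF1 in Ctrl and TMEM216, 77 and 140 for TMEM216 without and with IGF1, 1 for the interaction and 1 for IGF1 averaged.

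Of the 143 features called for TMEM216 without IGF1, 20 were higher; the share of higher ones was 32.8% after quantile normalization and 32.4% after median-of-ratios scaling. The summed TPM of the 69 genes in Ctrl was 803 after median-of-ratios scaling, which moved the interaction median of all features by -0.10. TPM keeps no depth, so the precision of low genes is known only from the spread of 3 libraries.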
